A study of Mus musculus with 2 samples.

Results

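The Mir302 and Mir367 cluster is a run of 5 microRNA genes on mouse chromosome 3, Mir302b, Mir302c, Mir302a, Mir302d and Mir367, and its reads were followed here in adult heart. The genes were chosen from the 2202 microRNA genes of the count tables by their symbols in gene annotation release M21 (build mm10), after earlier results had shown that their counts differed between the libraries, so the values below describe that difference and do not test it. Small RNA was sequenced from heart tissue with the labels female, adult, strain 5xFAD/CAST and an age of 8 to 10 months. The design held 1 group of 2 libraries, numbered as biological replicates 1 and 2, with no control group, and the labels give both the same donor identifier. Whether they come from separate animals is not clear from the labels, so each SD below, over n = 2 libraries, may measure technical spread alone. 5xFAD mice carry human Alzheimer disease transgenes driven by a neuronal promoter (Thy1), and CAST names an inbred strain of wild origin. Whether the tissue carried the transgenes is not given in the labels used here.

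MicroRNAs are short RNAs that guide Argonaute proteins to messenger RNAs, mostly through the seed, bases 2 to 8 of the mature strand. The cluster is transcribed as a single precursor under the control of pluripotency factors such as Oct4 and Sox2. It marks embryonic stem cells, above all those resembling the epiblast, and is switched off as cells differentiate. In heart it is known from the embryo, where it promotes cardiomyocyte proliferation through targets in the Hippo pathway, and it is low in the adult organ.

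The mature arms are shown to make visible what the genes share, since counting depends on which bases tell them apart. The capitals mark the seed, and the sequences are those of RefSeq (build GRCm38.p6), where the hairpins of all 5 genes and 9 of their mature arms were matched; miR-302a-3p is not shown. On the 3p arm Mir302b and Mir302d carry the same seed, and Mir302c, whose arm is annotated to start 1 base later, carries the same letters from its base 1:
miR-302b-3p: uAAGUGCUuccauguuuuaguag
miR-302d-3p: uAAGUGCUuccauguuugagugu
miR-302c-3p: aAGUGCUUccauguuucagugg
On the 5p arm Mir302b, Mir302c and Mir302d share a seed, and that of Mir302a differs:
miR-302b-5p: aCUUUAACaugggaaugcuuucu
miR-302c-5p: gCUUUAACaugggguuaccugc
miR-302d-5p: aCUUUAACauggaggcacuugcu
miR-302a-5p: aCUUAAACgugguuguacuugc
Mir367 has another seed on its 3p arm, that of the miR-25 and miR-92 microRNAs:
miR-367-3p: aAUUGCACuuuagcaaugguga
miR-25-3p: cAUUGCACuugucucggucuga
miR-92a-3p: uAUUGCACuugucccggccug

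The 5 hairpins lay within 580 bases on the plus strand of chromosome 3 (build mm10). Mir302b occupied 127545228 to 127545301, Mir302c 127545363 to 127545430, Mir302a 127545496 to 127545564, Mir302d 127545624 to 127545689 and Mir367 127545733 to 127545807. The gaps between neighbours were 61, 65, 59 and 43 bases. All 5 lay in a single intron of Larp7 (127544279 to 127545825), on the strand opposite to that gene, which encodes a protein that binds the 7SK RNA, and overlapped no exon of it.

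The members were similar but not identical. Hairpins of the 4 Mir302 genes were between 65.8% and 76.5% identical in pairwise alignments, whereas Mir367 was between 47.4% and 52.4% identical to them. The longest run of bases shared by 2 members was 20, between Mir302b and Mir302a. miR-302b-3p and miR-302d-3p share their first 17 bases. No mature arm of the members listed in RefSeq occurred whole in the hairpin of another gene, among 1005 hairpins searched. Read from its 5′ end, miR-302b-3p needed 19 bases, miR-302d-3p 18 and miR-302c-3p 17 before it occurred in no other hairpin. The 5p arms needed 14 bases for Mir302b, 13 for Mir302d, and 8 for Mir302c and Mir302a. Among these hairpins full-length reads of these arms can thus be told apart by exact match. Fragments of the 3p arms that start at the 5′ end and are shorter than this cannot. The hairpins cover 968 of the 2202 genes of the count tables, and the rest of the genome was not searched. The arm miR-302a-3p is not covered here.

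MicroRNA genes received 4186560 reads in replicate 1 and 2877511 in replicate 2, so 1 read corresponds to 0.239 and 0.348 counts per 1000000 (CPM). Reads that aligned to more than 1 locus, which made up 42.4% and 43.2% of the libraries, were given to no gene. A count of 0 allows up to 3 counts, or 0.717 CPM in replicate 1 and 1.04 CPM in replicate 2. Intervals are exact 2-sided 95% intervals. The limit of 3 counts for a count of 0 is a fixed 1-sided value, lower than the upper end of such an interval. The intervals and this limit cover counting error only, because the labels record no molecular identifiers and several reads may come from 1 molecule. A read spans a mature microRNA whole, so CPM was not divided by gene length. Mir208a and Mir499, microRNAs hosted in myosin heavy chain genes and defining for cardiomyocytes, were present in both libraries, at 1638 and 4787 CPM in replicate 1 and at 1074 and 3618 CPM in replicate 2.

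Reads of the Mir302 genes were few in replicate 1 and many more in replicate 2, although replicate 2 was the shallower library. The cluster had 42 counts in replicate 1, or 10.0 CPM (95% Poisson interval 7.23 to 13.6), and 1223 counts in replicate 2, or 425.0 CPM (402 to 449.5). The level in replicate 2 was 42.4-fold higher (Clopper-Pearson interval 31.2 to 59.1). The mean over both libraries was 218 ± 293 CPM (SD, n = 2), a spread wider than the mean itself. In shares of all microRNA gene reads the cluster held 0.00100% in replicate 1 and 0.0425% in replicate 2. For scale, the summed cluster in replicate 2 stood above Mir142, a microRNA of blood cells, at 274 CPM, and below Mir208a at 1074 CPM. In these whole-tissue libraries, fewer cells of a type and less RNA per cell cannot be told apart.

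**Figure D1:**
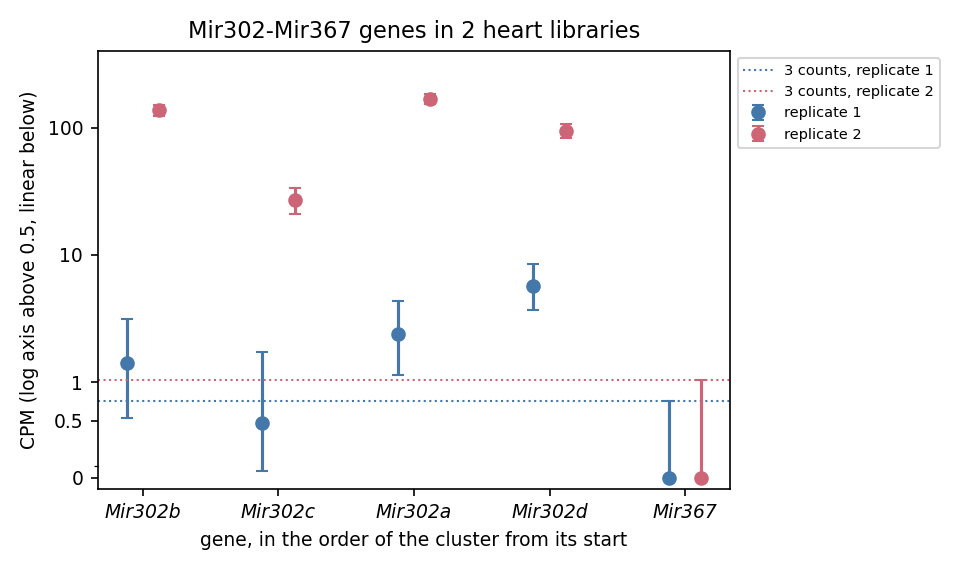
Level of each gene of the cluster in the 2 heart libraries, in CPM on an axis that is logarithmic above 0.5 and linear below. Points are single libraries, bars are 95% Poisson intervals (for a count of 0, up to 3 counts), and dotted lines mark 3 counts. The 4 Mir302 genes sit between 0.478 and 5.73 CPM in replicate 1 and between 26.8 and 167.5 CPM in replicate 2, and Mir367 is at 0 in both.

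Mir302a had 10 counts in replicate 1, fewer than Mir302d, and 482 in replicate 2, the most of the cluster there. Its level was 2.39 CPM (interval 1.15 to 4.39) and 167.5 CPM (153 to 183), a 70.1-fold difference (37.8 to 147). Among all genes it moved from rank 341 in replicate 1 to rank 111 in replicate 2.

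Mir302b, at the start of the cluster, had 6 counts in replicate 1 and 394 in replicate 2. Its level was 1.43 CPM (0.526 to 3.12) and 136.9 CPM (124 to 151), which gave the highest ratio of the cluster, 95.5-fold (43.5 to 262). It stood at rank 381 in replicate 1 and rank 119 in replicate 2.

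Mir302d had 24 counts in replicate 1, more than any other member there, and 270 in replicate 2. Its level was 5.73 CPM (3.67 to 8.53) and 93.8 CPM (83.0 to 106), which gave the lowest ratio of the cluster, 16.4-fold (10.8 to 26.0). That interval did not overlap those of Mir302a and Mir302b.

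Mir302c had 2 counts in replicate 1, within what a count of 0 allows, and 77 in replicate 2. Its level was 0.478 CPM (0.0579 to 1.73) and 26.8 CPM (21.1 to 33.4), a ratio of 56.0 with an interval from 15.0 to 471 that contains those of Mir302a and Mir302b.

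Mir367, the last gene of the cluster, had 0 counts in both libraries, on either strand. In replicate 2 this allows up to 1.04 CPM, or 0.245% of the cluster's counts, beside 93.8 CPM at Mir302d, which lies 43 bases away. In replicate 1 it allows up to 7.14% of the cluster's 42 counts, so that library gives little information on Mir367.

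Ordered by mean level, the genes were Mir302a with 84.9 ± 117 CPM, Mir302b with 69.2 ± 95.8, Mir302d with 49.8 ± 62.3, Mir302c with 13.6 ± 18.6 and Mir367 at 0 (SD, n = 2). The SD of each Mir302 gene exceeded its distance to the next gene. With low levels in replicate 1, each SD also exceeded the gene's own mean, so this comparison cannot show whether neighbours differ. The order by mean level is that of replicate 2, the library with nearly all the reads. In replicate 1 it was Mir302d, Mir302a, Mir302b and Mir302c, at 5.73, 2.39, 1.43 and 0.478 CPM, with Mir367 at 0. Within replicate 2 neighbours were separated beyond counting error: Mir302b had 0.817 reads per read of Mir302a (0.714 to 0.936), and 1.46 reads per read of Mir302d (1.25 to 1.71), and Mir302c had 0.285 reads per read of Mir302d (0.218 to 0.369). No read of the 5 genes was counted on the opposite strand in either library, and counts that ignore strand were the same as those on the strand of the gene.

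The make-up of the cluster was not the same in the 2 libraries. Mir302d supplied 57.1% of the 42 counts of replicate 1 (Clopper-Pearson interval 41.0 to 72.3) and 22.1% of the 1223 counts of replicate 2 (19.8 to 24.5). Mir302a supplied 23.8% (12.1 to 39.4) and 39.4% (36.7 to 42.2), and Mir302b 14.3% (5.43 to 28.5) and 32.2% (29.6 to 34.9). Mir302c supplied the smallest share of the 4 Mir302 genes in both, 4.76% (0.582 to 16.2) and 6.30% (5.00 to 7.81). These shares do not depend on how the libraries are scaled. Relative to Mir302d, Mir302a went from 0.417 reads per read (0.178 to 0.904) to 1.79 (1.53 to 2.08), so the order of these 2 genes was opposite in the 2 libraries.

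**Figure D2:**
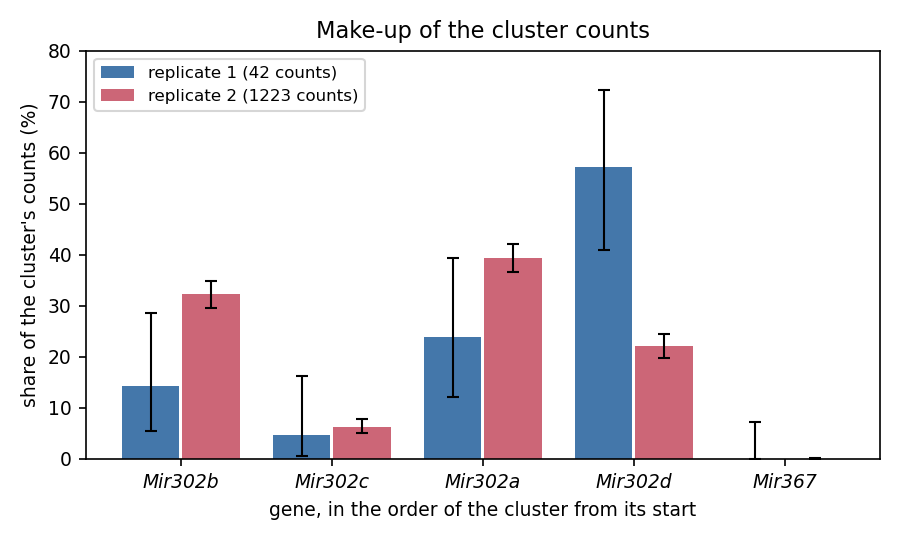
Share of the cluster's counts held by each gene, in percent, in replicate 1 (42 counts) and replicate 2 (1223 counts), with 95% Clopper-Pearson intervals (for a count of 0, up to 3 counts). Mir302d leads in replicate 1 with 57.1%, and Mir302a in replicate 2 with 39.4%.

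Among all genes with at least 20 counts over both libraries, 5 of 339 (1.47%) were at least 16-fold higher in replicate 2 on the scale of CPM plus 0.5, and 0 (0.0%) were at least 16-fold lower. Mir215, a gene of kidney and gut, came nearest on the lower side, with a log2 ratio of -3.98 (17.0-fold lower without the added 0.5). Of those 5, Mir302a, Mir302b and Mir302c are members, and the others were Mir9-3 and Mir26a-1, which left when 1 CPM was added in place of 0.5, so that 3 remained. Mir302d lay just under the line, with a log2 ratio of 3.92 on that scale against a line of 4 (without the added 0.5 it was 16.4-fold higher), and was among the 7 genes (2.06%) at least 8-fold higher. At least 8-fold lower were 3 genes (0.885%), Mir215, Mir195a and Mir301. Mir302a, Mir302b and Mir302c met the count minimum only through replicate 2, as did Mir9-3 and Mir669e among the other higher genes. Mir215 met it only through replicate 1. Mir367 did not meet it, so nothing is read from the members' number beside this background. Over the 339 genes the median log2 ratio was -0.04, and the highest was 6.15 (Mir302b).

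**Figure D3:**
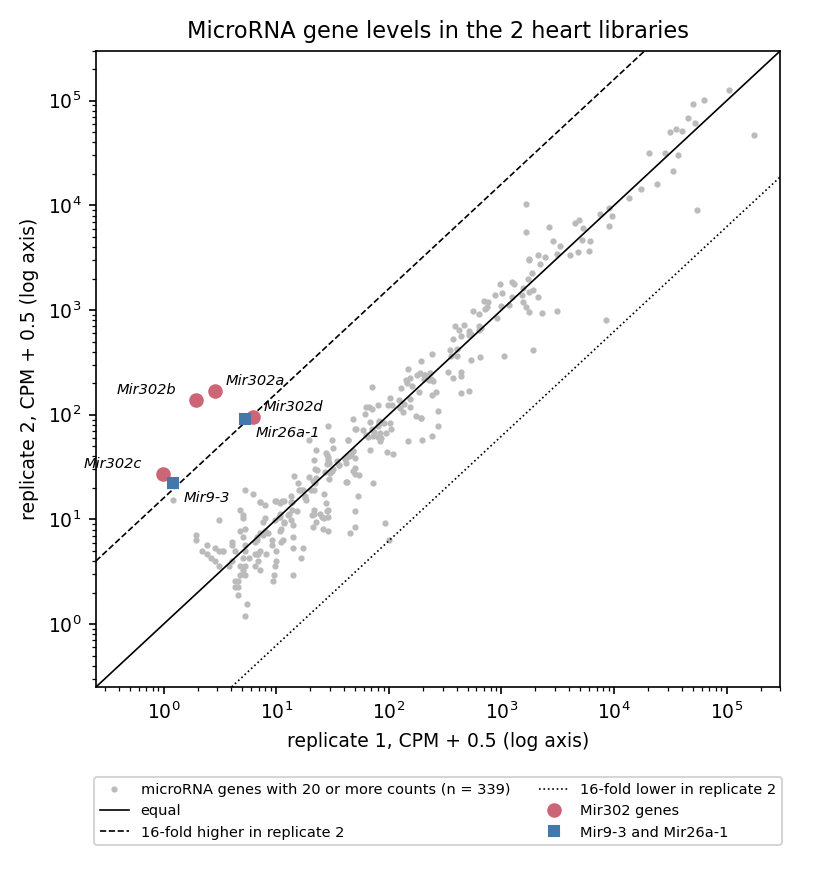
Level of each microRNA gene with at least 20 counts over both libraries in replicate 1 (x axis) against replicate 2 (y axis), as CPM plus 0.5 on log axes. Lines mark equal levels and 16-fold differences. Mir302a, Mir302b, Mir302c, Mir9-3 and Mir26a-1 lie above the upper line, Mir302d just below it, and no gene lies under the lower line.

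Outside the cluster, the genes with ratios nearest to its summed log2 ratio (5.34 on CPM plus 0.5) were sought among 279 genes with at least 50 counts. With only 2 libraries, likeness here means a similar ratio and nothing more. The nearest was Mir9-3, of the neural miR-9 family, with 3 counts in replicate 1 and 63 in replicate 2 and a ratio of 30.6 (interval 9.99 to 152). Mir26a-1, of a widely expressed family, had 20 and 262 counts and was 19.1-fold higher (12.1 to 31.7). Among the 279 genes a wide gap came after these. Mir140, known from cartilage, was 6.31-fold higher (6.15 to 6.48), Mir669l was 3.93-fold and Mir145a 3.36-fold higher, and the liver gene Mir122, at 19.1 and 57.3 CPM, was the last of these 6. Of these 6, Mir9-3, Mir26a-1 and Mir669l reached 50 counts only through replicate 2. Mir669e, with 3 and 43 counts, fell below the minimum of 50. It was 20.9-fold higher (log2 ratio 3.67 on CPM plus 0.5), which lies inside that gap.

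In other microRNA gene clusters the median ratios lay nearer to 0. Joining tested genes of the same strand that lay within 10 kb of each other gave 15 clusters of at least 3 genes. The Mir302 genes were chosen for their difference, and Mir302a, Mir302b and Mir302c passed the count minimum only through replicate 2, so their direction and median were fixed by that choice and are given as a description. They had log2 ratios from 3.92 to 6.15 with a median of 5.33. Among the other 14 clusters the medians ran from -1.85, for the epithelial genes Mir429, Mir200a and Mir200b, to 1.87, for Mir669e, Mir669l and Mir467c. The range of ratios inside the Mir302 cluster, 2.23, was wider than in all but 1 of the 14, the Mir669e group, where it was 3.79. These ranges rest on few reads. The Mir302 genes had from 2 to 24 counts in replicate 1, and Mir669e had 3. Mir302c, at 0.478 CPM there, lay below the added 0.5. Nothing is therefore read from the rank of this range.

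**Figure D4:**
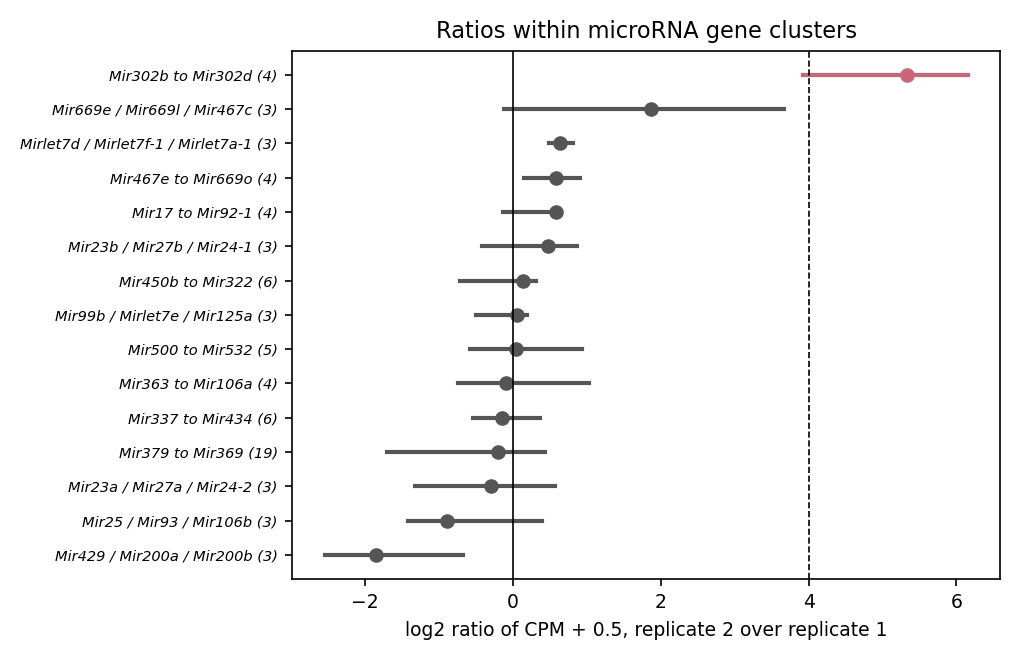
Log2 ratio of CPM plus 0.5, replicate 2 over replicate 1, within each of 15 microRNA gene clusters; dots are medians, lines run from the lowest to the highest gene, and the number of genes is in parentheses. The dashed line marks a 16-fold difference, and the Mir302 genes lie around it and above, from 3.92 to 6.15, apart from the 14 other medians.

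The other pluripotency cluster of the mouse, Mir290a to Mir295 on chromosome 7, was not high in replicate 2. It is the major microRNA cluster of mouse embryonic stem cells, and its main products carry the same seed as miR-302b-3p:
miR-291a-3p: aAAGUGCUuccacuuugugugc
miR-294-3p: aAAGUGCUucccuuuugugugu
miR-295-3p: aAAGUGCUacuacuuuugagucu
Its 9 genes together had 5 counts in replicate 1, or 1.19 CPM (0.388 to 2.79), and 0 counts in replicate 2, which allows up to 1.04 CPM. The reads of replicate 1 were 3 at Mir293, 1 at Mir291a and 1 at Mir292. Mir290a, Mir290b, Mir291b, Mir292b, Mir294 and Mir295 were at 0 in both libraries. In replicate 2, then, 1223 reads of the Mir302 genes stood beside no read of these 9. A count of 0 was common: of all 2202 genes of the count tables, 640 had reads in replicate 1 and 583 in replicate 2.

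Genes that share the seed of miR-367-3p had reads in both libraries, unlike Mir367 itself, from 16 and 6 counts at Mir363 to 6310 and 3963 at Mir92-1. Mir92-1, of the Mir17-92 cluster, had 1507 CPM in replicate 1 and 1377 CPM in replicate 2. Mir25 stood at 434 and 162 CPM, Mir92-2 at 89.6 and 83.4, Mir92b at 50.2 and 73.3, Mir32 at 21.3 and 36.1, and Mir363 at 3.82 and 2.09. None of these 6 was 16-fold apart between the libraries. Mir92-1 and Mir92-2 encode the same mature 3p arm, so their counts cover only reads that could be told apart.

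Genes of the miR-17 group, whose seed is related to that of miR-302 and shifted by 1 base, summed to 4263 CPM in replicate 1 and 5562 in replicate 2, with 4 of 6 higher, where 49.0% of all genes tested were higher by any amount, and a median log2 ratio of 0.47. The related embryonic cluster on the X chromosome, Mir106a to Mir363, summed to 104 and 101 CPM, with 1 of its 4 tested genes higher, a median of -0.10, and Mir19b-2 at 0 in both. None of these genes was 16-fold apart between the libraries.

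Marker lists of other cell types differed between the libraries in both directions. Lists higher in replicate 2 in sum were those of smooth muscle (32911 and 56334 CPM, median log2 ratio 1.22), leukocytes (5369 and 7640, 0.69), testis and germ cells (52.3 and 103, 0.72), pancreas (17.2 and 20.2, 0.14) and the hepatocyte gene Mir122 (19.1 and 57.3, 1.56). For pancreas, with 72 and 58 counts, the intervals of the sums overlapped (13.5 to 21.7 and 15.3 to 26.1 CPM). In the germ cell list Mir34c stood at 28.2 and 77.15 CPM, and Mir449a at 21.5 CPM in both libraries. Lists lower in sum were those of cardiomyocytes (6544 and 4789 CPM, -0.51), fibroblasts (5305 and 3732, -1.26), red cells (755 and 230.1, -1.78) and neural cells (125 and 74.0, -1.13). The endothelial list was lower in sum (176135 and 49984 CPM) through Mir126a, while its median was 0.65. The fibroblast sum was lower mainly through Mir214 (3091 and 976 CPM). Of its 4 tested genes 1 was higher, Mir21a (2199 and 2749 CPM), where 49.0% of all genes tested were higher by any amount. Medians are over members with at least 20 counts and stand beside -0.04 for all genes. Such members numbered 1 for pancreas, 2 for testis and germ cells, and at most 4 for any of these cell types. In these lists Mir9-3 was the only gene past 16-fold, where 5 of all 339 genes tested (1.47%) were at least 16-fold higher. At 0 in both libraries were Mir9-2 and the genes Mir124a-1, Mir124a-2 and Mir124a-3 of the neural list, Mir871, Mir880 and Mir881 of the germ cell list, and Mir199a-1 of the fibroblast list. The Mir9, Mir124a and Mir199a genes, like Mir1a and Mir133a of the cardiomyocyte list, are copies that encode the same microRNA at several loci, so their counts and zeros, and the list sums that hold them, cover only reads placed at a single locus and set no limit on those microRNAs. The part of these cell types in the Mir302 counts was not tested.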

How the data were processed

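The authors deposited, for each library, raw read counts per microRNA gene regardless of strand, on the strand of the gene and on the opposite strand; the readme files name build mm10 and annotation release M21, and no source used here names the aligner. The columns carry no header, and their meaning was read from their values. The 4 rows that name no gene held unmapped (19.0% and 17.5% of all reads), multimapping (42.4% and 43.2%), unassigned (6.94% and 7.11%) and ambiguous (0% on the gene's strand) reads and stayed out of totals.

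Counts on the strand of the gene were divided by the total over gene rows and given per 1000000 (CPM). Ratios are replicate 2 over replicate 1; those for all genes were taken on log2(CPM + 0.5) for genes with at least 20 counts. No test was made, since the design holds 1 group. Members, lists, thresholds and named genes were chosen with earlier results of these data known. Named genes were the members, the Mir290 to Mir295 genes, genes sharing a seed, defining markers and the 6 genes nearest in ratio. Alternatives changed strand, denominator, scaling (TMM and upper quartile of edgeR 4.0.16, size factors of DESeq2 1.42.0), replicate, fold, count minimum and pseudocount. The ratio step was tested on simulated data. Python 3.11.15, scipy 1.17.1, pandas 2.3.3, Biopython 1.88 and R 4.3.3 were used.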

Additional observations from a re-analysis of the deposited data

How the results depend on the processing

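The cluster's summed log2 ratio of 5.40 stayed between 5.07 (Mir302a left out of the sum) and 5.53 (upper quartile scaling) and inside its counting interval under every alternative run. All 16 alternative values of the 4 members' ratios lay inside the members' own intervals. The members' counts were the same in each alternative, and only the library totals changed. Each alternative thus moved all 4 log2 ratios by the same amount, so the 16 values are not separate checks. The summed level, 218 CPM as a mean, was 425.0 CPM without replicate 1 and 10.0 CPM without replicate 2. It was 70.1 per 1000000 reads with all reads as the denominator, which is larger by construction, and 272 CPM with reads regardless of strand. The number of genes at least 16-fold higher in replicate 2 was 5 and fell to 3 with a pseudocount of 1 CPM, which shrinks ratios of low genes by construction: Mir302a, Mir302b and Mir302c stayed, and Mir9-3 and Mir26a-1 left. It was 7 with a pseudocount of 0.1 CPM, which added Mir302d and Mir669e. No ratio can be had without either replicate. No paired analysis was possible because the design holds 1 group. The 42 counts of replicate 1 limit every ratio and share given here.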

Other observations

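Mir26a-1 and Mir26a-2 encode the same 5p arm, and their unique counts behaved differently between the libraries; the pair was chosen after its values were seen. Mir26a-1 stood at 4.78 CPM in replicate 1 and 91.1 CPM in replicate 2, while Mir26a-2 stood at 81.0 and 83.8 CPM. The 3p arms, which tell the genes apart, are:
miR-26a-1-3p: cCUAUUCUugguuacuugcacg
miR-26a-2-3p: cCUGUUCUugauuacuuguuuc
The 3 genes of the miR-9 family encode the same arms on both sides, and only Mir9-3 had more than 3 counts in either library. The counts of Mir9-1 were 0 and 3, and Mir9-2 had 0 in both. Only reads placed at a single locus enter these values, which set no limit on the level of miR-9.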
